A study of Homo sapiens with 6 samples.

Results

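BAHD1 is a vertebrate repressor that brings histone deacetylases and histone methyltransferases together on chromatin. The genes described here are BAHD1, its relative BAHCC1, the scaffolds MIER1, MIER2 and MIER3, the deacetylases HDAC1 and HDAC2, the chromodomain gene CDYL, and EHMT1 and EHMT2, which encode GLP and G9a. They were chosen by name, as the genes listed alone by a probe set of the array, a probe set being the group of probes that reads 1 transcript. All 10 were found, on 11 of the 28869 probe sets, among 18377 genes named alone. Both EHMT2 probe sets held the same 6 values and were counted as 1 measurement.

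As background, the BAH domain at the end of BAHD1 reads methylated lysine on histone H3. The MIER proteins carry ELM2 and SANT domains, which hold and activate HDAC1 and HDAC2, as the MTA and RCOR proteins do in other deacetylase complexes. CDYL recognises methylated histone H3, and the paired enzymes G9a and GLP place methyl groups on lysine 9 of histone H3. Together these activities remove acetyl groups and add repressive methylation at the same nucleosomes.

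Gene expression was measured in HEK293, an established line from human embryonic kidney, on 3 arrays labelled HEK-BAHD1 and 3 labelled HEK293-CT. The HEK-BAHD1 line carries 1 copy of the BAHD1 cDNA at an FRT site, driven by the human cytomegalovirus promoter and with an N-terminal tag. The control line carries an out-of-frame β-galactosidase sequence there per the labels, or the empty vector per the study. Both lines were kept in 200 µg/ml hygromycin B, each is a stable pool of transfectants, and the arrays of a line come from separate flasks. Per the study's methods, HEK-BAHD1 replicate 2 was collected at a later passage than replicate 1 and the control line, and no passage is named there for replicate 3. Each p-value reflects variation among flasks of a single pool for each line, and precision is limited by the small number of arrays.

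Values are log2 signals from RMA (Robust Multichip Average), so that a difference of 1 is a doubling of signal, and signals are not compared between genes. A gene was called higher or lower at an adjusted p under 0.05 from limma, over 21062 probe sets, with a difference between group medians above 0.2. Array medians lay between 5.46 and 5.56. Differences are the arrays labelled HEK-BAHD1 minus those labelled HEK293-CT, and the direction of BAHD1 under these labels opposes the one the study gives for this line. Among markers of HEK293, the keratin genes KRT8 and KRT18 lay between 10.52 and 11.69 and VIM, which encodes vimentin, between 11.01 and 11.36. Of 8 markers of other cell types, PTPRC and CD3E (blood), ALB (liver), MYOD1 and TTN (muscle) and PECAM1 (endothelium) lay between 3.05 and 4.42. HBB, of red cells, lay between 4.14 and 4.58 and was the 1 of the 8 called, lower at -0.32 (adjusted p = 0.0147 from limma). INSM1, a neuroendocrine gene, lay between 6.96 and 7.31, its groups apart at a log2 fold change of 0.19, and it was not called (adjusted p = 0.11 from limma). Their part in the results was not tested. VIM was called lower and the neurofilament genes NEFL and NEFM higher on the arrays labelled HEK-BAHD1, with log2 fold changes of -0.28, 0.40 and 0.77. NEFM was dim, between 4.21 and 4.69 on the arrays labelled HEK293-CT and between 5.13 and 5.47 on the others. It lay under the median of every array. PAX2 and LHX1, genes of kidney development, were between 5.60 and 5.98.

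BAHD1, the gene inserted into the HEK-BAHD1 line, ran against the labels. The control-labelled arrays gave 10.06, 9.81 and 9.93, and those labelled HEK-BAHD1 gave 6.75, 7.00 and 6.76. Every array labelled HEK293-CT was thus far above every array labelled HEK-BAHD1, with a gap of 2.81 between the nearest arrays. The log2 fold change of -3.10 (95% interval -3.31 to -2.88, adjusted p = 3.12e-05 from limma) is an 8.55-fold difference in signal. It ranked 1 among all tested probe sets by size, ahead of ANKRD1 at -2.46, a gene of stretched muscle and of YAP signalling, and PXDN at 2.34, a matrix peroxidase. Where the probes of the BAHD1 probe set lie relative to the inserted cDNA was not examined here. All directions below are those of the labels as deposited, so an exchange of the labels, which was not tested, would turn every sign and leave every size.

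**Figure D1:**
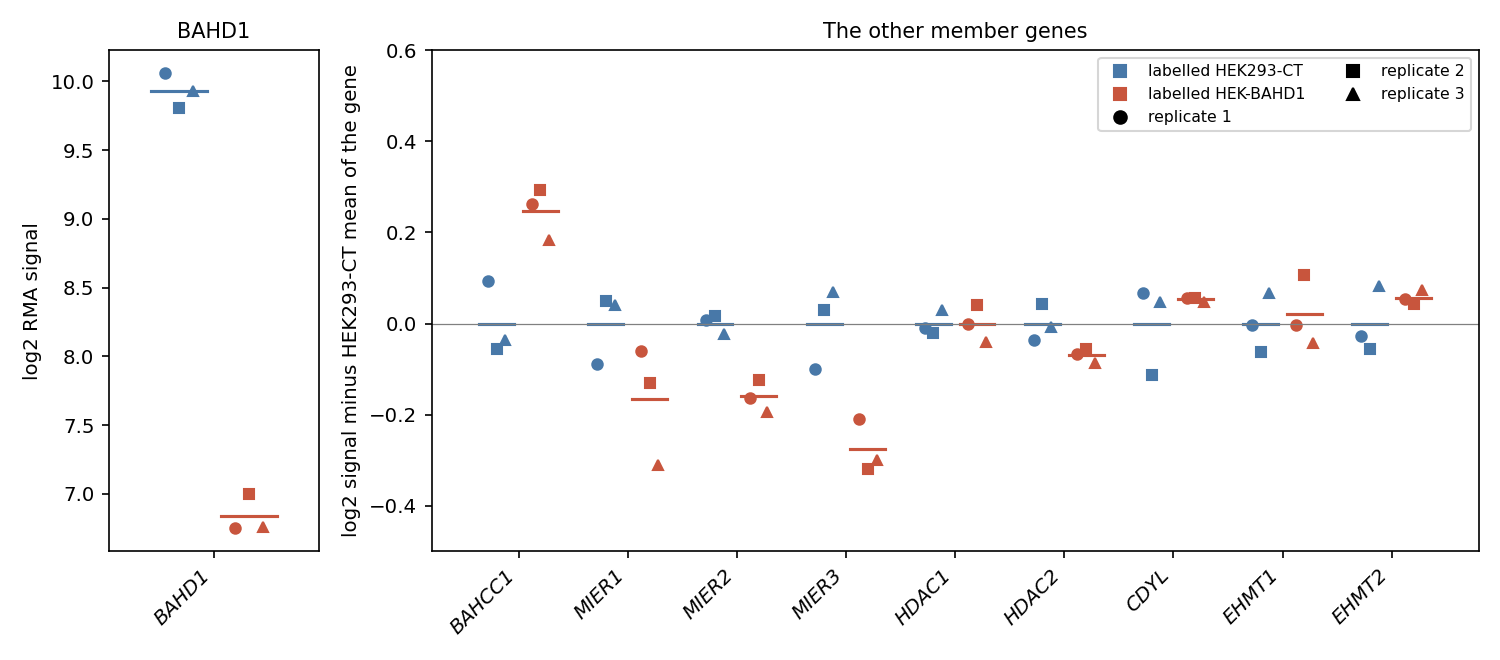
Signal of the 10 member genes on the 6 arrays. Left, log2 RMA signal of BAHD1; right, log2 signal of the other genes minus the mean of each gene on the arrays labelled HEK293-CT. Each symbol is an array, shaped by replicate number, and lines are means of 3 arrays. BAHD1 lies at 9.81 or above on the arrays labelled HEK293-CT and at 7.00 or below on the others, whereas the remaining genes moved by less than 0.3.

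The sequence around the starts of these genes is a property that their choice did not use. For BAHD1 the RefSeq table for GRCh38 lists 3 starts, and the 250 bases before the first and the second of them, on the plus strand, are printed to show how far they differ in CpG content, with each CpG in capitals.
BAHD1 first start, chr15:40439507-40439756: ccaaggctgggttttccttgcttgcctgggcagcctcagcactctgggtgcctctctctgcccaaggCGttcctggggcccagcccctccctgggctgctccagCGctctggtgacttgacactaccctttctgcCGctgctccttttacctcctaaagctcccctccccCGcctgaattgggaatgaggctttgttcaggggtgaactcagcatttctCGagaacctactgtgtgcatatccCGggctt
BAHD1 second start, chr15:40440703-40440952: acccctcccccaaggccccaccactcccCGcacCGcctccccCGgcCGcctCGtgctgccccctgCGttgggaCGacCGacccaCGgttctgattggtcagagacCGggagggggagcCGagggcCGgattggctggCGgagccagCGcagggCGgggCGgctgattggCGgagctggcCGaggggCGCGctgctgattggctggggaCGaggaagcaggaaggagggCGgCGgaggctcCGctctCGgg
The stretch before the first start holds 6 CpG sites and that before the second 25. The table's windows, which run on for 50 bases past the start and so hold 300, have 7 and 32 CpG sites at these starts and 44 at the last. The letters CCAAT, on either strand, stand 4 times in the window of the second start, 1 time in that of the first and 0 times in that of the last. At least 1 copy is found in 34.6% of all 35116 windows of that length and 4 or more in 0.991%; the match is one of letters, not of a bound site. Among the other members, BAHCC1 has 3 copies in its window, MIER3 2, and HDAC1 and 1 of the MIER2 windows 1 each, while the windows of MIER1, HDAC2, CDYL, EHMT1 and EHMT2 have 0. The 10 genes have 15 windows, because BAHD1, CDYL and MIER2 have several starts. Each gene has at least 1 window with a GC content of 50% or more and a ratio of observed to expected CpG of 0.6 or more, and 12 of the 15 pass both, beside 46.9% of all windows. No such share was computed per gene. In the richest window of each gene the number of CpG sites runs from 24 in HDAC2 to 51 in EHMT1. The poorer windows of CDYL hold 4 and 5 and the poorest of BAHD1 holds 7. The median over all windows was 14, but it was not taken over the richest window of each gene, so the 2 are unlike measures.

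The genes beside BAHD1 on chromosome 15 were described next. On the near side in RefSeq order lie PLCB2, CCDC9B, DISP2, KNSTRN and IVD, and on the far side CHST14, CCDC32, RPUSD2, KNL1 and RMDN3. None of the 10 was called by limma or by the LPE test, the local-pooled-error test named in the study's methods and written anew here. At an unadjusted p under 0.05 there were 0 higher and 1 lower. Their log2 fold changes ran from -0.22 to 0.11, and in 8 of the 10 the groups overlapped. Over all tested probe sets, limma called 6.79% higher and 6.39% lower, and the groups did not overlap for 16.7% and 16.9%. These 10 genes are too few to set apart from those shares. The lowest was KNL1, a kinetochore scaffold, which read 8.79, 8.70 and 8.70 on the arrays labelled HEK293-CT and 8.54, 8.58 and 8.40 on those labelled HEK-BAHD1 (adjusted p = 0.064 from limma). IVD, an enzyme of leucine breakdown on one side of BAHD1, was at 0.053, and CHST14, a sulfotransferase on the other side, at 0.11. The RefSeq table also lists a noncoding transcript, LOC124903473, that overlaps BAHD1, and the array values do not separate the pair.

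**Figure D2:**
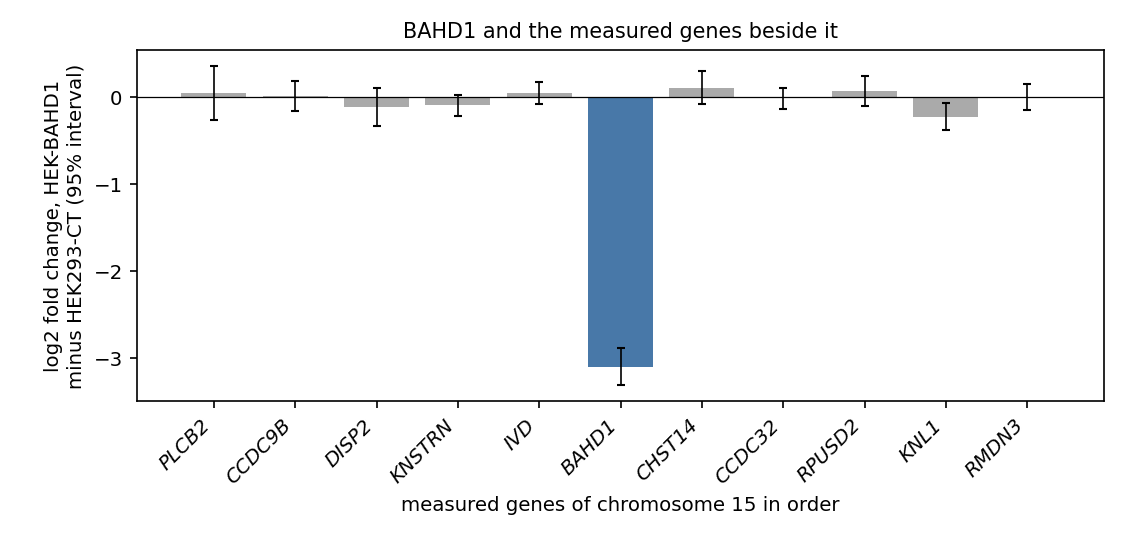
The vertical axis gives the log2 fold change, the arrays labelled HEK-BAHD1 minus those labelled HEK293-CT, of BAHD1 and the 5 measured genes on each side of it, in their order along chromosome 15. Bars are limma estimates and whiskers their 95% intervals; BAHD1 is at -3.10 and the others lie between -0.22 and 0.11.

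Many transcripts followed the split between the lines, so likeness to BAHD1 over 6 arrays is a description only. Pearson's r with BAHD1 was above 0.9 for 1378 of the other 19309 probe sets naming 1 gene and below -0.9 for 1432. The highest values were those of CHD8, a chromodomain helicase, at 0.9992, ZNF75A at 0.9991, ZNF625-ZNF20 at 0.9990, the phosphatase gene PPM1D at 0.9989 and ADM, which encodes adrenomedullin, at 0.9986. The lowest were those of AMPD2 at -0.9994, SCD, a fatty acid desaturase, at -0.9987, NME4 at -0.9986, VOPP1 at -0.9983 and NYNRIN at -0.9979. CHD8 itself moved far less than BAHD1, from a mean of 9.02 ± 0.032 on the arrays labelled HEK293-CT to 8.45 ± 0.040 on the others (SD, n = 3), a log2 fold change of -0.57. The points share the split between the lines. Within each label, BAHD1 and CHD8 were both lowest on replicate 2 of HEK293-CT and both highest on replicate 2 of HEK-BAHD1. PPM1D was also lowest on replicate 2 of HEK293-CT but read 9.51 on both replicates 2 and 3 of HEK-BAHD1. CHD8 and PPM1D were picked by their r over these same 6 arrays. Likeness within a label was favoured by that choice and is no separate support.

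BAHCC1, which shares the BAH domain with BAHD1, was the 1 member called higher, in a comparison that called 6.79% of all tested probe sets higher. Its signal was 6.02, 5.87 and 5.89 on the arrays labelled HEK293-CT and 6.19, 6.22 and 6.11 on those labelled HEK-BAHD1. The groups did not overlap, but the nearest arrays were 6.02 and 6.11. The log2 fold change was 0.25 (95% interval 0.10 to 0.39, adjusted p = 0.0426 from limma). This call was kept under 3 of 14 alternative settings, in which the adjusted p ran from 0.0219 to 0.131. Its log2 fold change stayed between 0.21 and 0.29, and the call was lost with the LPE test, with median-centred arrays and when any single array other than HEK293-CT replicate 1 was left out.

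All 3 MIER genes, the scaffolds for HDAC1 and HDAC2, had lower means on the arrays labelled HEK-BAHD1, and 1 of them was called, where 6.39% of all tested probe sets were called lower. MIER3 read 9.39, 9.52 and 9.56 on the arrays labelled HEK293-CT and 9.28, 9.17 and 9.19 on those labelled HEK-BAHD1. These values did not overlap, and the log2 fold change was -0.28 (95% interval -0.43 to -0.12, adjusted p = 0.0326 from limma). The call was kept under 7 of 14 alternatives, among them the LPE test and both other scalings, and after leaving out 1 of the 6 arrays, HEK293-CT replicate 1. The adjusted p reached 0.108 without HEK293-CT replicate 3. The gene lies on chromosome 5, where the median log2 fold change over 770 genes was -0.01. Of those genes, 51 were called higher and 87 lower.

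MIER2 read 6.79, 6.80 and 6.76 on the arrays labelled HEK293-CT and 6.62, 6.66 and 6.59 on those labelled HEK-BAHD1. The groups were apart by 0.10, and the SDs were 0.021 and 0.035 (n = 3). With a log2 fold change of -0.16 (95% interval -0.28 to -0.041, adjusted p = 0.0804 from limma) it was not called. MIER1 read 8.72, 8.86 and 8.85 on the arrays labelled HEK293-CT and 8.75, 8.68 and 8.50 on those labelled HEK-BAHD1. HEK293-CT replicate 1 fell within the range of the other line, and the log2 fold change was -0.17 (95% interval -0.35 to 0.018, adjusted p = 0.212 from limma). The MIER1 and MIER2 differences were not called under any of the 14 alternatives, though MIER2 had an adjusted p of 0.0407 from limma after quantile normalization again and 0.0405 without the dimmest 30% of probe sets, where its difference of medians did not pass the threshold. Whether the MIER genes differ from each other in their change was not tested, and the intervals of all 3 overlap.

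HDAC1 and HDAC2, the catalytic subunits that the MIER proteins bind, were not called. HDAC1 read 11.73, 11.72 and 11.77 on the arrays labelled HEK293-CT and 11.74, 11.78 and 11.70 on those labelled HEK-BAHD1. Both groups had a mean of 11.74, and the 95% interval of the log2 fold change ran from -0.12 to 0.12. With median-centred arrays the log2 fold change was -0.04. HDAC2 read 10.79, 10.87 and 10.82 on the arrays labelled HEK293-CT and 10.76, 10.77 and 10.74 on those labelled HEK-BAHD1. Its groups were apart by 0.02, and the log2 fold change was -0.07 (95% interval -0.19 to 0.050, adjusted p = 0.423 from limma).

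CDYL, the chromodomain gene, read 8.27, 8.09 and 8.25 on the arrays labelled HEK293-CT and 8.26, 8.26 and 8.25 on those labelled HEK-BAHD1. The wider spread lay in the control label, through its replicate 2, and the log2 fold change was 0.053 (95% interval -0.094 to 0.20). Without HEK293-CT replicate 2 it was -0.0033, and it was called under no alternative.

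The methyltransferase genes were close to 0 as well. EHMT1, which encodes GLP, read 7.87, 7.81 and 7.94 on the arrays labelled HEK293-CT and 7.87, 7.98 and 7.83 on those labelled HEK-BAHD1, the log2 fold change being 0.02 (95% interval -0.13 to 0.17). EHMT2, which encodes G9a, read 8.70, 8.67 and 8.81 on the arrays labelled HEK293-CT and 8.78, 8.77 and 8.80 on those labelled HEK-BAHD1, the log2 fold change being 0.057 (95% interval -0.077 to 0.19). For both genes the groups overlapped, and the adjusted p-values from limma were 0.874 and 0.573.

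**Figure D3:**
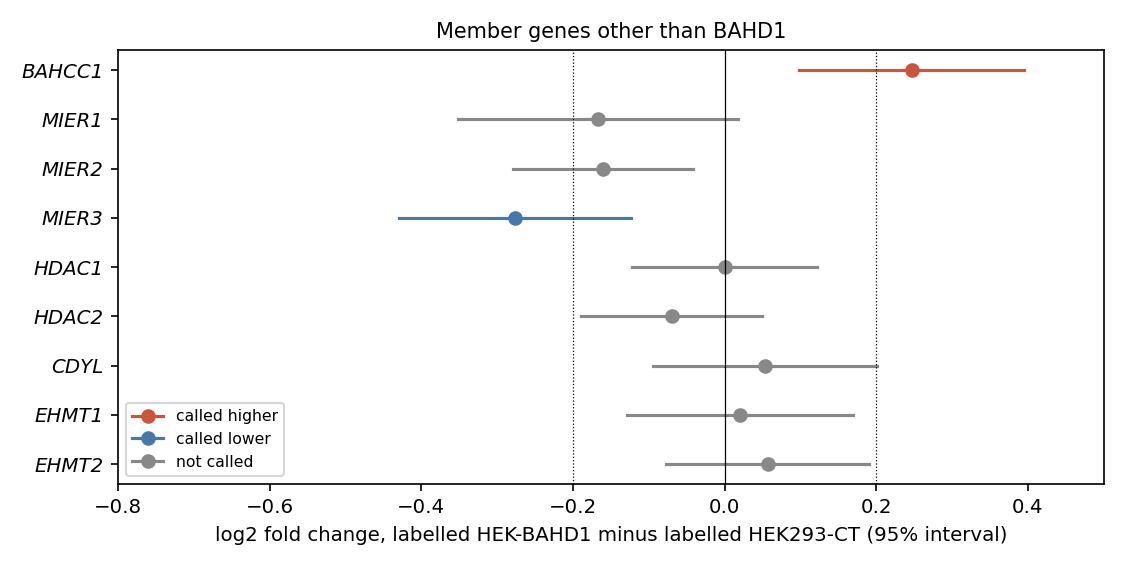
Log2 fold change (horizontal axis, labelled HEK-BAHD1 minus labelled HEK293-CT) of the 9 member genes other than BAHD1. Points are limma estimates, lines their 95% intervals, colours the calls, and dotted lines mark 0.2 on either side. BAHCC1 is at 0.25, the MIER genes between -0.28 and -0.16, and HDAC1, HDAC2, CDYL, EHMT1 and EHMT2 between -0.07 and 0.057.

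Of the 10 members, 1 was called higher, 2 lower and 7 in neither direction. The background was 6.79% of tested probe sets higher and 6.39% lower. Leaving aside BAHD1, the gene that was inserted, the count was 1 higher and 1 lower of 9, a number of genes too small to set apart from that background. The median size of the log2 fold change over those 9 genes, signs ignored, was 0.07, beside 0.105 over all tested probe sets. The arrays of the groups did not overlap for 1 member in the higher and 4 in the lower direction, beside 16.7% and 16.9% of all tested probe sets. For the 7 uncalled members the interval bound farthest from 0 ran from 0.12 in HDAC1 to 0.35 in MIER1.

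The genes that work beside the complex were taken from 7 lists holding 71 genes, 6 of them in more than 1 list, and 69 were measured. Of these, 1 was called higher and 11 lower, with a median log2 fold change of -0.073, beside 0.0033 over all tested probe sets, of which 6.79% were called higher and 6.39% lower. The count of each list stands beside these same shares, and no list was tested against them. Before adjustment, 5 were higher and 19 lower at p under 0.05, and the LPE test called 1 higher and 11 lower. The number called lower by limma fell to 3 without HEK293-CT replicate 3 and likewise without HEK-BAHD1 replicate 1, and it was 5, 7, 6 and 4 without HEK293-CT replicate 1, HEK293-CT replicate 2, HEK-BAHD1 replicate 2 and HEK-BAHD1 replicate 3. The background shares include dim probe sets. Without the dimmest 30%, limma called 1570 of 14743 probe sets higher and 1571 lower, a larger share in each direction. In that setting 13 related genes were called, 12 of them lower.

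Among 8 partners of BAHD1 that the study names, MBD1 was called lower and the others were not called. MBD1, which binds methylated CpG, read 9.48, 9.38 and 9.49 on the arrays labelled HEK293-CT and 9.16, 9.12 and 9.13 on those labelled HEK-BAHD1. The groups were well apart, with a log2 fold change of -0.31 (adjusted p = 0.0119 from limma), and the call was lost under 1 of the 14 alternatives, without HEK293-CT replicate 3 (adjusted p = 0.0504). MBD1 lies on chromosome 18, where the median over 264 genes was -0.10 and 12 genes were called higher and 64 lower. The list had a median of -0.013, with 0 called higher by limma, by the LPE test and at an unadjusted p under 0.05.

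Of 8 measured genes with a BAH domain, DNMT1, the maintenance DNA methyltransferase, was called lower and none higher. It read 10.31, 10.16 and 10.28 on the arrays labelled HEK293-CT and 9.90, 9.98 and 10.06 on those labelled HEK-BAHD1. The groups were apart by 0.10, and the log2 fold change of -0.27 (adjusted p = 0.0384 from limma) was called under 6 of 14 alternatives, and with 1 array left out only without HEK293-CT replicate 2. At an unadjusted p under 0.05 there were 1 higher and 3 lower in this list, and 0 higher and 1 lower with the LPE test. Its median was -0.10. ASH1L, also on the list, was not analysed here.

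The other genes with ELM2 and SANT domains, which are the nearest relatives of the MIER genes, were not called in either direction by limma (0 of 9). At an unadjusted p under 0.05 there were 1 higher and 1 lower, and the LPE test called 0 higher and 1 lower, TRERF1, which is named after its values were seen. The largest differences were MTA1, a subunit of the NuRD complex, at 0.22 and RCOR1, a subunit of the CoREST complex, at -0.17. MTA1 read 8.67, 8.55 and 8.68 on the arrays labelled HEK293-CT and 8.81, 8.86 and 8.88 on those labelled HEK-BAHD1. It had an adjusted p = 0.0493 from limma but a difference of medians of 0.19, under the threshold. The median of this list was -0.087.

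Among the 9 other histone deacetylases, HDAC11, the class IV enzyme, was called higher and none lower. It read 5.95, 5.91 and 5.84 on the arrays labelled HEK293-CT and 6.13, 6.37 and 6.35 on those labelled HEK-BAHD1. The log2 fold change was 0.38 (adjusted p = 0.0191 from limma). The call was kept under 10 of 14 alternatives and lost when replicate 2 or 3 of either line was left out, the adjusted p reaching 0.0676. The list had a median of 0.02, while before adjustment 2 were higher and 0 lower at p under 0.05, and the LPE test called 1 higher and 0 lower.

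Of 22 measured subunits of complexes that hold HDAC1 and HDAC2, 4 were called lower, none higher and 18 neither. ARID4B, a chromatin-binding subunit of the SIN3 complex, read 8.95, 8.92 and 8.98 on the arrays labelled HEK293-CT and 8.62, 8.52 and 8.45 on those labelled HEK-BAHD1. Its groups were clearly apart, and the log2 fold change of -0.42 (adjusted p = 0.00614 from limma) was called under all 14 alternatives. ING1, SAP18 and BRMS1, which encode further proteins found with SIN3, were at -0.30, -0.22 and -0.20 on the log2 scale. Their calls were kept under 10, 6 and 4 of 14 alternatives. With 1 array left out, ING1 was called after 3 of the 6 removals, SAP18 after that of HEK-BAHD1 replicate 3 alone, and BRMS1 after 0. The scaffold SIN3A was at -0.073 and CHD4, the NuRD helicase, at -0.063, neither of them called. CHD3, named after its values were seen, was higher at 0.22 with its groups apart (adjusted p = 0.0401 from limma). It was not called, because its difference of medians was 0.20 and did not pass the threshold. For BRMS1, which was called, that difference was -0.22. The list had a median of -0.065, and at an unadjusted p under 0.05 there were 2 higher and 6 lower, with 0 and 2 from the LPE test. ARID4A was not analysed here.

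Of 10 genes of H3K9 methylation, 3 were called lower and 0 higher, and the groups did not overlap for 8 in the lower and 1 in the higher direction, beside 6.39% and 6.79% of all tested probe sets called and 16.9% and 16.7% not overlapping. ATF7IP, a cofactor of the methyltransferase SETDB1, read 9.93, 9.88 and 9.90 on the arrays labelled HEK293-CT and 9.53, 9.63 and 9.40 on those labelled HEK-BAHD1. The log2 fold change was -0.38 (adjusted p = 0.0128 from limma), called under all 14 alternatives. ZNF644, a zinc finger partner of G9a and GLP, was at -0.30, and MPHOSPH8, a chromodomain subunit of the HUSH complex, at -0.25. Their calls were kept under 6 and 7 of 14 alternatives, and with 1 array left out after 0 removals for ZNF644 and only without HEK-BAHD1 replicate 2 for MPHOSPH8. WIZ, the other partner of G9a and GLP on the list, was at -0.10 and not called. SETDB1 and SUV39H1, which write the mark, were at -0.027 and -0.14, also not called. The median was -0.16, while before adjustment 0 were higher and 5 lower at p under 0.05, and the LPE test called 0 and 3.

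Of 9 PRC2 genes, the complex that writes H3K27 methylation, 2 were called lower and 0 higher. EED, the subunit that reads the mark, was 9.09, 9.18 and 9.24 on the arrays labelled HEK293-CT and 8.86, 8.92 and 8.91 on those labelled HEK-BAHD1. The groups were apart, with a log2 fold change of -0.27 (adjusted p = 0.0242 from limma), and the call was kept under 8 of 14 alternatives, and with 1 array left out only without HEK293-CT replicate 1. EZH2, the catalytic subunit, was also at -0.27 and was called under 11 of 14, the exceptions being the removal of replicate 1 of either line or of HEK-BAHD1 replicate 3, where the adjusted p reached 0.0548. SUZ12, the scaffold subunit, was at -0.097 and not called. The median was -0.11, while before adjustment 0 were higher and 4 lower at p under 0.05, and the LPE test called 0 and 3.

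**Figure D4:**
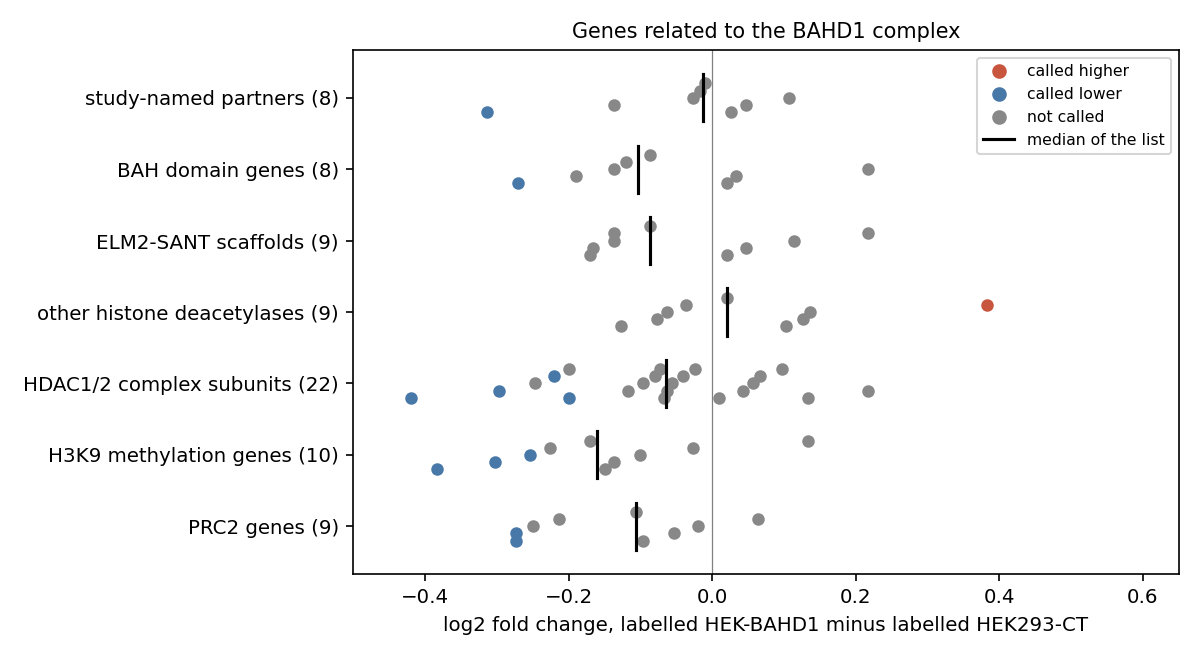
Log2 fold change (horizontal axis, labelled HEK-BAHD1 minus labelled HEK293-CT) of the measured genes of 7 lists related to the BAHD1 complex, 1 point per gene and colours for the calls; the number measured stands beside each list, and vertical offsets within a list have no meaning. Black bars are list medians, from -0.16 for H3K9 methylation genes to 0.02 for the other histone deacetylases, and 1 gene, HDAC11, is called higher.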

How the data were processed

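RNA of 6 cultures was hybridised to Affymetrix HuGene ST arrays. The deposited values are log2 signals, computed by the authors with RMA, in which probe intensities are background-corrected, normalized across arrays and combined for each probe set. The RMA version and the genome build of the annotation are not given in the sources used here. Of 28869 probe sets, 19310 named 1 gene, 1752 several and 7807 none. Symbols were updated through gene IDs to GRCh38 (19279 matched), and coordinates are printed only for promoter windows of that build.

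Groups were taken from the sample titles. The 21062 named probe sets were fitted in limma (version 3.58.1, R 4.3.3) with Benjamini-Hochberg adjustment and no replicate block. Median differences were rounded before the threshold of 0.2. Genes with more than 1 probe set were represented by the brightest. The LPE test, which is not installed, was written anew with 100 bins of intensity, smoothed by a spline (10 degrees of freedom). Both tests were tested on simulated data.

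The members and lists were chosen with earlier results of these data known. Named genes were the members, up to 4 called genes of each list or else its largest 2, the 5 measured neighbours on each side of BAHD1, the 5 highest and lowest correlations with BAHD1 and the next largest changes; others are named for context. Alternatives were another variance model, the LPE test, other scalings and filters, no threshold on medians, the replicate block and leaving out each array. Probe and protein sequences were not used here.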

Additional observations from a re-analysis of the deposited data

How the results depend on the processing

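BAHD1 kept its direction and its call under all 14 alternatives, with log2 fold changes from -3.18 to -3.03 with 1 array left out and -3.14 to -3.09 otherwise. No neighbour of BAHD1 was called under any of them. The number of members called higher was 0, against 1, with an intensity trend in limma, with the LPE test, with median-centred arrays, after quantile normalization again, with all probe sets tested and with the replicate block. It ranged from 0 to 1 with 1 array left out. The number called lower was 1, against 2, with all probe sets tested and with the replicate block, and ranged from 1 to 2 with 1 array left out. The number of related genes called, 12, rose to 15 with median-centred arrays and to 14 with no threshold on medians. It became 7 with all probe sets tested and 7 with the replicate block, and ranged from 3 to 7 with 1 array left out. Those called lower, 11, rose to 14 with median-centred arrays and stayed at 11 with no threshold on medians, so that the threshold took away higher calls only. They became 7 after quantile normalization again, 6 with all probe sets tested and 6 with the replicate block, and ranged from 3 to 7 with 1 array left out. Over all tested probe sets, the calls of 1430 higher and 1345 lower became 962 and 829 with the replicate block, and 1052 and 1823 with median-centred arrays, a setting that moved the median log2 fold change from 0.0033 to -0.037. Leaving out an array or adding terms leaves fewer degrees of freedom, and testing all probe sets adds to the adjustment. Testing all of them also moved standard errors, from 0.0636 to 0.0662 for BAHCC1 and from 0.0656 to 0.0681 for MIER3. What changed the calls was not tested.

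Signs turned in genes near 0 that were never called. EHMT1 was at -0.02 with median-centred arrays, and with 1 array left out it ranged from -0.0233, without HEK-BAHD1 replicate 2, to 0.0533, being -0.0117 without HEK293-CT replicate 2. CDYL ranged from -0.00333, without HEK293-CT replicate 2, to 0.0867. The values gave no sign that the replicate numbers pair the samples. Deviations of same-numbered arrays from their group means correlated at -0.077, 0.074 and -0.038, while HEK293-CT replicate 1 was nearest to HEK-BAHD1 replicate 3 (0.176). With 3 arrays a group such correlations cannot show whether cultures were handled together. The replicate block gave BAHD1 the same log2 fold change of -3.10 and took the calls from BAHCC1 and MIER3, among the members (adjusted p = 0.0765 and 0.0794 from limma).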
